A study of Mus musculus with 114 samples.

Results

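The CSF1 axis and the core macrophage genes were followed in adipocytes of lean and obese mice. The group is 9 genes chosen by symbol: Csf1, Il34, Csf1r, Csf2ra, Csf2rb, Spi1, Adgre1, Cd68 and Lyz2. Of these, 8 were found among the 29132 genes of the table and all 8 passed the filter on low values, as did 10343 genes in all. Adgre1, which encodes the macrophage surface protein F4/80, was not analysed here. The membership rule used no measured value.

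RNA was sequenced from the perigonadal fat of 38 male C57BL/6J mice, each mouse giving 1 RNA sample with 3 technical replicates merged by the authors. From 6 weeks of age the mice ate chow diet (CD, either of the control formulations) or high fat diet (HFD) for 8, 20 or 34 weeks. There were 6 mice in each group, except for 8 CD mice at 34 weeks, and all carried the same wild type genotype. After a fast the fat was digested with collagenase and the floating cells, the adipocyte fraction, were kept, without a sort or a marker that would separate adipocytes from other floating cells. Time on diet, age and the day of harvest cannot be told apart in this design.

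CSF1 and interleukin 34 are the ligands of CSF1R, the receptor tyrosine kinase on which most tissue macrophages depend for growth and survival. GM-CSF acts through a separate receptor, made of the alpha chain encoded by Csf2ra and the beta chain encoded by Csf2rb, which the receptors for interleukin 3 and interleukin 5 also use. PU.1, the product of Spi1, is the transcription factor that sets up the macrophage programme and drives the genes of these receptors. In obese fat, macrophages gather around dying adipocytes.

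The values are CPM, the reads of a gene for every 1000000 reads on all genes of that mouse. Fold changes are differences of log2(CPM + 1) from 1 limma fit across all genes, and a gene is called where the adjusted p is under 0.05. Between 9275711 and 15480388 reads fell on genes in each mouse, so that 1 read is worth 0.0646 to 0.108 CPM. At 8 weeks depth did not overlap between the diets, at 10562845 to 12611013 reads in CD and 13201234 to 15480388 in HFD mice. It overlapped at 20 and 34 weeks, and its part in the results was not tested. Adipocyte markers were read in every mouse. The summed CPM of 12 such markers was 18221 to 73071 across the mice. It was lower on HFD, with medians of 58258 in CD and 41772 in HFD mice at 8 weeks, 63034 and 29786 at 20 weeks and 47339 and 28169 at 34 weeks. Genes of macrophages were also read in every mouse. The summed CPM of 32 macrophage genes outside the group had medians of 988 and 2528 at 8 weeks, 1890 and 9449 at 20 weeks and 4098 and 13850 at 34 weeks, CD first. In HFD mice at 34 weeks these genes summed to 6529 to 19460 CPM, and the adipocyte markers to 18221 to 43335 CPM. Markers of several other cells were also higher on HFD in median, but not all. The 10 progenitor and fibroblast markers summed to 450 and 689 CPM at 8 weeks, 358 and 1358 at 20 weeks and 379 and 721 at 34 weeks, CD first. For 8 endothelial markers the medians were 76.0 and 263, 144 and 335, and 103 and 205 CPM, for 6 mural markers 89.8 and 141, 99.0 and 148, and 75.1 and 141 CPM, and for 5 mast cell markers 4.68 and 4.78, 6.37 and 23.4, and 6.14 and 56.5 CPM. The 8 T cell markers summed to medians of 1.05 and 3.70, 1.28 and 2.77, and 3.38 and 3.14 CPM, at most 5.93 in a mouse, with Cd3e, Cd3d and Cd3g at 0 in 22, 27 and 31 mice. The 7 neutrophil markers summed to medians of 5.62 and 14.1, 5.48 and 5.53, and 13.0 and 7.26 CPM, at most 25.9 in a mouse, with Retnlg and Ngp at 0 in 24 and 36 mice. Their part in the results was not tested. In bulk RNA, fewer cells of a type and less RNA per cell cannot be told apart.

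The members parted into a ligand that fell, a ligand that was not called, and 6 genes of macrophages that rose. On HFD, Csf1 was lower at 8 and 20 weeks, Il34 was not called at any time, and Csf1r, Csf2ra, Spi1, Cd68 and Lyz2 were higher at all 3 times. Csf2rb was higher at 20 and 34 weeks. The calls of Csf1 at 20 weeks, Csf2ra at 8 weeks, and Csf2rb and Lyz2 at 34 weeks were lost under other settings or without single mice, as given with each gene. In the limma fit 5 members were called higher and 1 lower at 8 weeks, where 29.8% of all genes tested were called higher and 15.1% lower. At 20 weeks the counts were 6 higher and 1 lower, beside 38.3% and 18.7% of all genes. At 34 weeks 6 were higher and 0 lower, beside 27.5% and 15.7%. These shares are on plain CPM, without scaling factors. With TMM factors fewer of all genes were called higher and more lower at each of the 3 times, as given at the end. The median log2 fold change of the 8 members was 1.24, 2.22 and 1.46 at the 3 times, against 0.11, 0.14 and 0.07 over all genes tested.

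**Figure D1:**
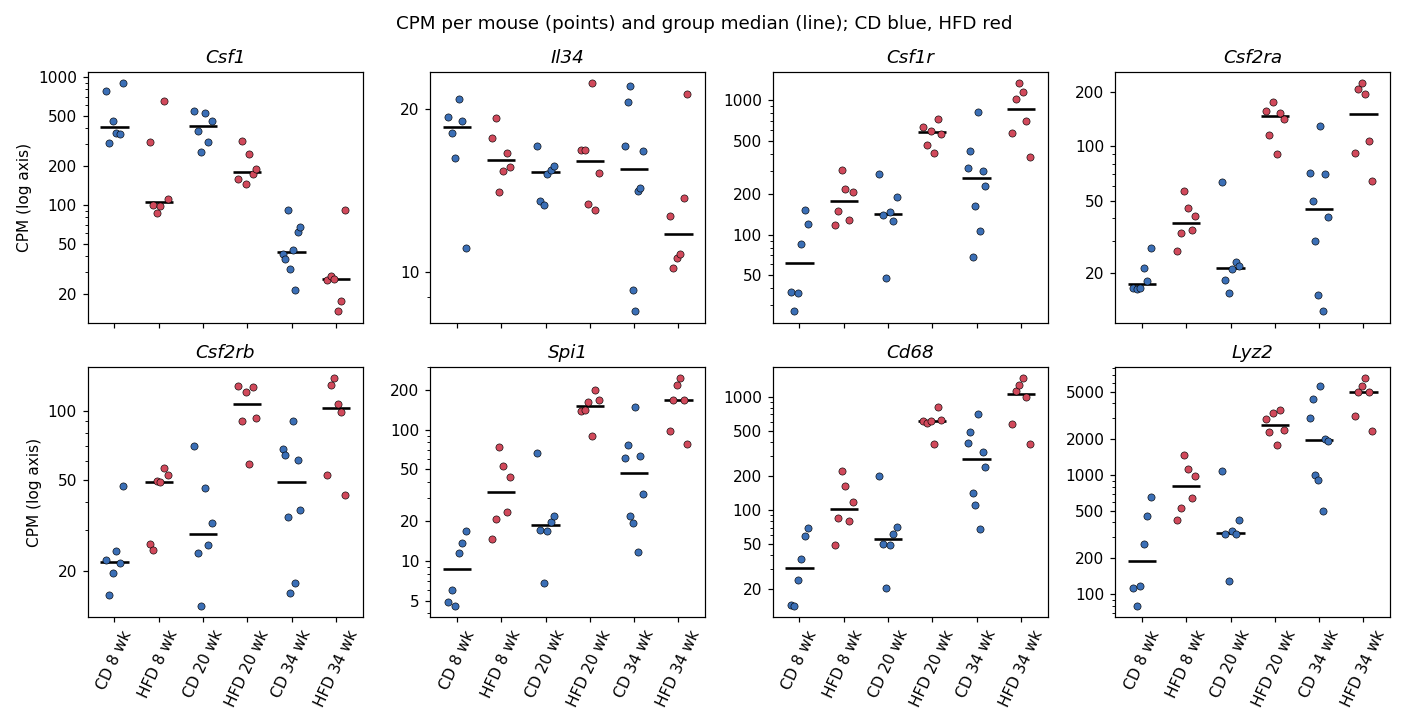
CPM of the 8 members on log axes, with 1 point per mouse and a line at the group median, for CD (blue) and HFD (red) after 8, 20 and 34 weeks. Csf1 sits at 14.8 to 92.0 CPM in all 34 week mice, Il34 stays between 8.47 and 22.3 CPM, and the other 6 genes are higher in the HFD groups.

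Csf1 (Entrez 12977, GRCm38 chromosome 3, 107741048 to 107760469) encodes CSF1, a growth factor that adipocytes and stromal cells make. At 8 weeks it ranged from 302 to 894 CPM in CD mice, with a median of 409, and from 86.8 to 649 CPM in HFD mice, with a median of 106. In 4 of the 6 HFD mice it was below every CD mouse, while HFD mice 1 and 5 had 308 and 649 CPM and lay within the CD range. The log2 fold change was -1.55 (standard error 0.41, limma adjusted p = 0.00304).

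At 20 weeks the lowest, median and highest values of Csf1 were 262, 417 and 540 CPM in CD mice. In HFD mice they were 146, 183 and 318 CPM. All but 1 of the HFD mice were below every CD mouse. The log2 fold change was -0.999 (standard error 0.41, limma adjusted p = 0.0372), and the call rested on single mice. Without the filter on low values its adjusted p was 0.0578. It was lost with an adjusted p of 0.0562 to 0.0760 and a log2 fold change of -0.99 to -0.91 when CD mouse 1, 4 or 6 or HFD mouse 1, 3, 5 or 6 of that time was left out.

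At 34 weeks Csf1 was low in both diets. CD mice ranged from 21.6 to 92.0 CPM with a median of 42.8, and HFD mice from 14.8 to 91.0 with a median of 26.3. The diets overlapped, and the log2 fold change of -0.68 did not pass (95% interval -1.46 to 0.10, limma adjusted p = 0.147). HFD mouse 6 stood at 91.0 CPM, and the other 5 HFD mice were at 14.8 to 27.8 CPM. Without HFD mouse 6 the log2 fold change was -1.02 (adjusted p = 0.0237), and with array weights, which weigh mice by their variance, it was -1.07 (adjusted p = 0.0330).

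The largest differences of Csf1 were between 34 weeks and the earlier times. On CD the step from 20 to 34 weeks was -3.10 on the log2 scale (limma adjusted p = 5.04e-08, standard error 0.38), and the values of the 8 and 6 mice did not overlap, as in 7.96% of all genes tested. Against 8 weeks the log2 fold change was -3.38 (adjusted p = 1.54e-08), again without overlap, as in 10% of all genes. On HFD the same step was -2.78 (adjusted p = 1.72e-05, standard error 0.41), also without overlap, as in 4.42% of all genes. Between 8 and 20 weeks it differed by -0.28 on CD and 0.27 on HFD, and neither passed. The fall at 34 weeks was measured in both diets, and the 2 falls were not shown to differ (difference of the diet effects 0.32, 95% interval -0.83 to 1.46, limma adjusted p = 0.752).

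Il34 (Entrez 76527, chromosome 8, 110741829 to 110805949) encodes the other ligand of CSF1R, known best from skin and brain. It had the narrowest range of the members over all mice, from 8.47 to 22.3 CPM. Its median was 18.6 CPM in CD and 16.1 CPM in HFD mice at 8 weeks, with ranges of 11.1 to 20.9 and 14.1 to 19.2. At 20 weeks the median was 15.3 CPM in CD and 16.0 CPM in HFD mice, with ranges of 13.3 to 17.1 and 13.0 to 22.3. At 34 weeks it was 15.5 CPM in CD and 11.7 CPM in HFD mice, with ranges of 8.47 to 22.1 and 10.2 to 21.4. The diets overlapped at every time. The log2 fold changes were -0.06, 0.09 and -0.18, with 95% intervals of -0.43 to 0.30, -0.28 to 0.46 and -0.52 to 0.16 (limma adjusted p = 0.794, 0.690 and 0.389). No comparison between times passed for Il34, the lowest adjusted p being 0.205, for HFD at 34 against 20 weeks. Each mouse had 99 to 315 reads of Il34. Exons of Il34 overlap predicted genes on the other strand, and those of Csf1r overlap Hmgxb3, and whether the counting used strand is not given in the sources used here.

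Csf1r (Entrez 12978, chromosome 18, 61105572 to 61131139) encodes the receptor for both ligands and is carried mainly by macrophages and monocytes. At 8 weeks it ranged from 26.9 to 152 CPM in CD mice (median 61.0) and from 117 to 303 CPM in HFD mice (median 178). At 20 weeks the ranges were 47.2 to 284 CPM (median 143) and 402 to 724 CPM (median 576). At 34 weeks they were 68.2 to 824 CPM (median 265) and 376 to 1340 CPM (median 860). The diets did not overlap at 20 weeks, and they overlapped at 8 and 34 weeks, where 3 of the 6 HFD mice were above every CD mouse each time. The log2 fold changes were 1.499, 2.00 and 1.75 (standard errors 0.46, 0.46 and 0.43, limma adjusted p = 0.00881, 0.000412 and 0.00173).

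At 8 and 20 weeks Csf1 was lower and its receptor higher on HFD, and the per-mouse log2 ratio of Csf1 to Csf1r puts both into 1 value. It averaged 2.94 ± 1.12 in CD and -0.11 ± 1.60 in HFD mice at 8 weeks (SD, n = 6 each), a difference of -3.05 by a two-sided exact permutation test (p = 0.0108, adjusted p = 0.0162). At 20 weeks it was 1.53 ± 0.54 and -1.47 ± 0.69 (difference -3.00, exact p = 0.00216, adjusted p = 0.00433). At 34 weeks it was -2.33 ± 1.36 in 8 CD mice and -4.77 ± 1.46 in 6 HFD mice (difference -2.43, exact p = 0.00799, adjusted p = 0.0131). Csf1r on its own passed at that time and Csf1 did not. A difference in this ratio is the log2 fold change of Csf1 less that of Csf1r, and is not a separate test of Csf1. The p-values were adjusted over 36 tests of 9 ratios in 4 comparisons, and 0.00216 is the smallest p that 6 against 6 mice allow. CD mice at 34 weeks also had a lower ratio than CD mice at 8 weeks (difference -5.27, exact p = 0.000333, adjusted p = 0.00171).

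**Figure D2:**
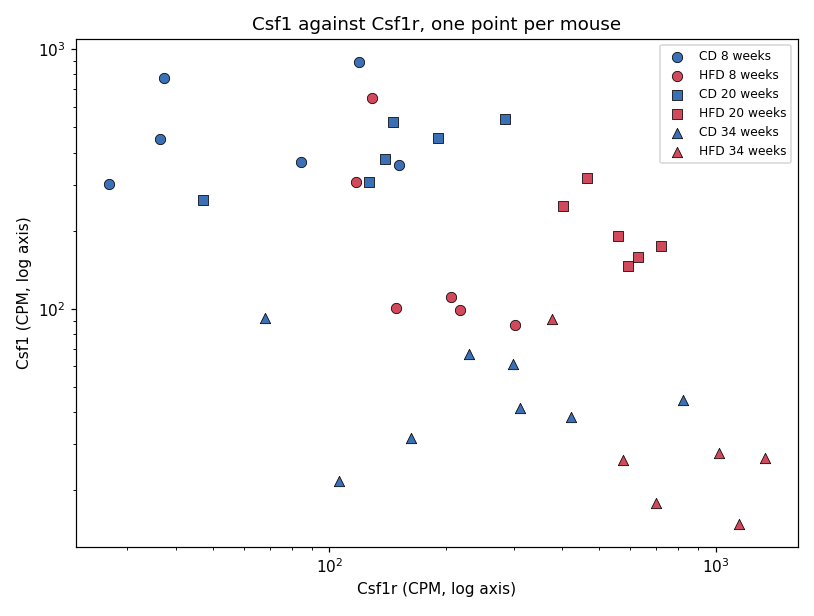
Csf1 against Csf1r in CPM on log axes, with 1 point per mouse, for CD (blue) and HFD (red) after 8 (circles), 20 (squares) and 34 weeks (triangles). The 20 week HFD mice lie to the right of and mostly below the CD mice of that time, and all 34 week mice lie at or below 92.0 CPM of Csf1.

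The GM-CSF receptor chains rose as well. Csf2ra (Entrez 12982, chromosome 19, 61217191 to 61228461) ranged from 16.3 to 27.4 CPM in CD mice at 8 weeks (median 17.2) and from 26.2 to 56.5 CPM in HFD mice (median 37.6). At 20 weeks it was 15.5 to 63.5 CPM (median 21.4) and 90.1 to 175 CPM (median 147), without overlap. At 34 weeks it was 12.3 to 129 CPM (median 45.1) and 64.1 to 222 CPM (median 150), with 3 of 6 HFD mice above every CD mouse. The log2 fold changes were 0.97, 2.45 and 1.69 (standard errors 0.39, 0.39 and 0.36, limma adjusted p = 0.0401, 3.55e-06 and 0.000561). The 8 week call was lost, with an adjusted p of 0.0615 to 0.0952, without CD mouse 1, 2, 3 or 5 or HFD mouse 3, 4 or 6 of that time. It was also lost with TMM factors (0.87, adjusted p = 0.0533), with median-of-ratios factors (0.88, adjusted p = 0.0513), with edgeR on the reads (0.91, adjusted p = 0.0501) and without the filter on low values (adjusted p = 0.0658).

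Csf2rb (Entrez 12983, chromosome 15, 78325800 to 78351001) changed less. At 8 weeks it was 15.7 to 46.8 CPM in CD mice (median 21.9) and 24.7 to 56.3 CPM in HFD mice (median 48.9), a log2 fold change of 0.76 that did not pass (95% interval 0.0044 to 1.53, limma adjusted p = 0.0939). It did without CD mouse 6 of that time (0.96, adjusted p = 0.0436), with array weights (1.02, adjusted p = 0.000437) and with the 8 week mice fitted alone (adjusted p = 0.0274). At 20 weeks it was 14.1 to 70.0 CPM (median 29.0) and 58.7 to 128 CPM (median 107), and at 34 weeks 16.0 to 90.1 CPM (median 48.8) and 42.9 to 138 CPM (median 103). The diets overlapped at every time. The later log2 fold changes were 1.64 and 1.04 (standard errors 0.37 and 0.35, adjusted p = 0.000383 and 0.0161), and the 34 week call was lost without HFD mouse 3 (0.91, adjusted p = 0.0539) or with the 34 week mice fitted alone (adjusted p = 0.0700). Csf2rb has a near-identical neighbour, Csf2rb2, the interleukin 3 specific beta chain of the mouse. Of the stretches of 50 bases in Csf2rb transcripts, 12.3% also occur in Csf2rb2, so its counts are less certain than those of the other receptors. Csf2rb2 itself had medians of 9.69 CPM in CD and 92.4 CPM in HFD mice at 20 weeks.

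Spi1 (Entrez 20375, chromosome 2, 91082374 to 91115759) was read at 4.54 to 16.9 CPM in CD mice at 8 weeks (median 8.76) and at 14.6 to 73.1 CPM in HFD mice (median 33.4). At 20 weeks it was at 6.84 to 66.5 CPM (median 18.6) and 89.4 to 201 CPM (median 152), without overlap. At 34 weeks it was at 11.7 to 148 CPM (median 46.8) and 77.6 to 246 CPM (median 168). The HFD mice were above every CD mouse in 5 of 6 cases at 8 weeks and 4 of 6 at 34 weeks. The log2 fold changes were 1.83, 2.82 and 1.85 (standard errors 0.48, 0.48 and 0.45, limma adjusted p = 0.00273, 9.53e-06 and 0.00151).

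Cd68 (Entrez 12514, chromosome 11, 69664213 to 69666170) encodes a glycoprotein of endosomes and lysosomes that is widely used to mark macrophages. Its ranges at 8 weeks were 14.2 to 69.0 CPM in CD mice (median 30.5) and 49.4 to 222 CPM in HFD mice (median 102). At 20 weeks they were 20.5 to 200 CPM (median 55.4) and 385 to 809 CPM (median 609), without overlap. At 34 weeks they were 67.6 to 698 CPM (median 281) and 382 to 1462 CPM (median 1063). At 20 weeks its diet difference was the largest of any member, 3.29 on the log2 scale (limma adjusted p = 1.56e-06, standard error 0.49). At 8 and 34 weeks the log2 fold changes were 1.78 and 1.87 (adjusted p = 0.00434 and 0.00180).

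The 250 bases before the start of transcription that RefSeq gives are shown for Csf1, which fell, and for Cd68 and Csf2ra, which rose. RefSeq promoters in build GRCm38.p6 are reported for 4 of the 8 members (these 3 and Lyz2), all on the minus strand. Promoters of the other members are not reported here, and nothing is said of their motifs. The windows are chr3:107760470-107760719 for Csf1, chr11:69666171-69666420 for Cd68 and chr19:61228419-61228668 for Csf2ra. They run 5′ to 3′ towards the start, and capitals mark matches to GAGGAA (the core of a PU.1 site), TGANTCA (AP-1) or TTGCNNAA (C/EBP), searched on both strands.
Csf1: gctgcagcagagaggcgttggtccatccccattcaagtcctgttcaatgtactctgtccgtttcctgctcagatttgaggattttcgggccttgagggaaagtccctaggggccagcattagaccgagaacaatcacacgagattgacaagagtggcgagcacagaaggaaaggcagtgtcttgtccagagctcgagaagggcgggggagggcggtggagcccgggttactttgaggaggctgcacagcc
Cd68: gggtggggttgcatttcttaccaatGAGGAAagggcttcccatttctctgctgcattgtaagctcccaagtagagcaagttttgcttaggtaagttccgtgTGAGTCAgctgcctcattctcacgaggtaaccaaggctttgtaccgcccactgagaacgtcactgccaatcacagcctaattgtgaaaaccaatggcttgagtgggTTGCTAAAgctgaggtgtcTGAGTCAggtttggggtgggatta
Csf2ra: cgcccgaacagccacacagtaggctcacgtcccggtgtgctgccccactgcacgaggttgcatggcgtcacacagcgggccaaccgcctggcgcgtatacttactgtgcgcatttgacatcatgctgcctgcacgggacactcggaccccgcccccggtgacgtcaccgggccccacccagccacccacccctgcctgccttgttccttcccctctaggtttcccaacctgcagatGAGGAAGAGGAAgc
Cd68 holds 1 GAGGAA, 2 TGANTCA and 1 TTGCNNAA. Csf2ra holds 2 GAGGAA side by side, at -14 and -8 from the start used here. Csf1, which fell, and Lyz2, which rose, hold 0 of the 3 motifs. Of 32851 mouse promoters of this length 23.3% hold GAGGAA, 6.75% TGANTCA and 9.56% TTGCNNAA. The Csf2ra start used here lies inside the gene: the last 43 bases of its window, with both matches, are within the span given for Csf2ra above, and the windows of Csf1, Cd68 and Lyz2 have 0 bases inside their genes. A match is a description of the letters and not a site of binding.

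Lyz2 (Entrez 17105, chromosome 10, 117277541 to 117282272) encodes the lysozyme of macrophages and other myeloid cells and had the highest median CPM of the members in every HFD group. It ranged from 79.4 to 654 CPM in CD mice at 8 weeks (median 190) and from 418 to 1464 CPM in HFD mice (median 811). At 20 weeks the ranges were 130 to 1091 CPM (median 328) and 1806 to 3517 CPM (median 2663), without overlap. At 34 weeks they were 499 to 5613 CPM (median 1976) and 2361 to 6532 CPM (median 4983). The log2 fold changes were 1.90, 2.88 and 1.24 (standard errors 0.51, 0.51 and 0.48, limma adjusted p = 0.00331, 1.55e-05 and 0.0340). The 34 week call was lost without CD mouse 3, 4 or 6 or HFD mouse 2, 3, 4 or 5 of that time (log2 fold change 0.97 to 1.20, adjusted p 0.0575 to 0.0910). It was also lost with edgeR (0.87, adjusted p = 0.114) and DESeq2 (0.88, adjusted p = 0.0894) on the reads, with array weights (1.11, adjusted p = 0.0547), without the filter on low values (adjusted p = 0.0543) and with the 34 week mice fitted alone (adjusted p = 0.0751). Lyz2 shares 15.4% of its stretches of 50 bases with Lyz1, whose median was at most 39.8 CPM in any group.

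At 20 weeks 5 members (Csf1r, Csf2ra, Spi1, Cd68 and Lyz2) were higher on HFD without overlap, where 26.1% of all genes tested were. At 8 and 34 weeks no member was free of overlap, where 15.7% and 1.47% of all genes were higher and 7.14% and 0.986% lower without overlap. CD mouse 1 at 20 weeks stood apart: it had the highest value of its group for all 6 macrophage members, with 63.5 CPM of Csf2ra and 200 CPM of Cd68. The other 5 mice of that group had 20.5 to 70.9 CPM of Cd68. Without it 6 members were called at 20 weeks, against 7 with it, and the call lost was that of Csf1 (limma adjusted p = 0.0706).

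**Figure D3:**
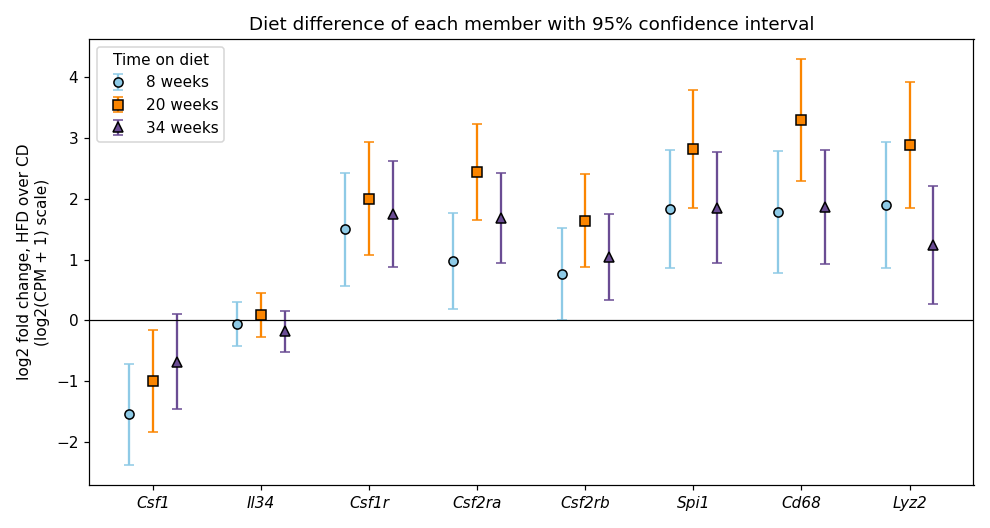
Log2 fold change of HFD over CD for each member at 8 (circles), 20 (squares) and 34 weeks (triangles) on the log2(CPM + 1) scale, with bars for the 95% confidence interval of the limma fit. The intervals of Il34 include 0 at all 3 times, those of Csf1 lie below 0 at 8 and 20 weeks, and those of Csf1r, Csf2ra, Spi1, Cd68 and Lyz2 lie above 0 at every time.

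The diet differences of the macrophage members were numerically largest at 20 weeks, and the difference between times was tested with an interaction term. No member passed for 20 against 8 weeks in the limma fit, where 4.49% of all genes did, or for 34 against 20 weeks, where 10.5% did. At an unadjusted p under 0.05 there were 2 and 2 members, and edgeR and DESeq2 on the reads called 0 and 0. For Csf2ra the diet difference was 1.47 larger at 20 than at 8 weeks (adjusted p = 0.0912), and without CD mouse 1 of 20 weeks it was 1.75 larger (adjusted p = 0.0288). For Lyz2 it was -1.64 at 34 against 20 weeks (adjusted p = 0.118), and it became -1.96 without CD mouse 1 of 20 weeks (adjusted p = 0.0473) and -1.91 without CD mouse 6 of 34 weeks (adjusted p = 0.0471). With array weights 2 members passed for 20 against 8 weeks (Csf2ra, adjusted p = 0.000364, and Cd68, 0.0215) and 3 for 34 against 20 weeks (Csf2ra, 0.00352, Cd68, 0.0166, and Lyz2, 0.0128). That setting called 4263 and 3407 of all 10343 genes for these comparisons, against 464 and 1089 without the weights.

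Time on diet was examined within each diet. From 8 to 20 weeks no member was called on CD in the limma fit, beside 3.58% of all genes. At an unadjusted p under 0.05 there were 2, edgeR and DESeq2 called 0, and array weights called Csf1r and Spi1 (adjusted p = 0.0146 and 0.0162). Array weights called 1543 of all 10343 genes there, against 370 without the weights. On HFD 6 members rose over the same time, beside 21.2% of all genes, and all 6 did so without overlap, as 15% of all genes did. The smallest of these rises on HFD was that of Csf2rb, at 1.26 on the log2 scale (adjusted p = 0.00912), and the largest that of Cd68, at 2.46 (adjusted p = 0.000419). The change from 8 to 20 weeks was not shown to differ between the diets, as the interaction term above is the same test.

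From 20 to 34 weeks 2 members rose on CD and 1 fell, beside 41.1% and 21.4% of all genes. Cd68 was up by 1.99 on the log2 scale (adjusted p = 0.000402) and Lyz2 by 2.36 (adjusted p = 7.83e-05), while Csf1 fell. Csf1r, Csf2ra and Spi1 had log2 fold changes of 0.76, 0.74 and 1.00 with adjusted p of 0.120, 0.0751 and 0.0509. The count reached 5 without CD mouse 1 of 20 weeks and without CD mouse 3, 4 or 6 of 34 weeks. Csf1r was then called without CD mouse 3 (adjusted p = 0.0330), Csf2ra without CD mouse 1 of 20 weeks or CD mouse 4 or 6 (0.0130 to 0.0213), and Spi1 without each of these 4 mice (0.00943 to 0.0348). Spi1 also passed narrowly, at 0.0473 to 0.0499, without CD mouse 6, HFD mouse 1 or HFD mouse 3 of 8 weeks or HFD mouse 6 of 34 weeks. DESeq2 called Csf2ra and Spi1 there (adjusted p = 0.0350 and 0.0364), and array weights called Csf2ra, Csf2rb and Spi1 (0.000314, 0.0403 and 0.00455). These settings called 6375 and 6856 of all 10343 genes for that comparison. On HFD only Csf1 was called between 20 and 34 weeks, beside 12.5% of all genes lower. Over the whole span from 8 to 34 weeks 6 members rose on CD, beside 40.1% of all genes, and Csf1 fell, beside 24.6%. The rise of Csf2rb there (log2 fold change 0.79, adjusted p = 0.0467) was lost without any of 13 single mice (adjusted p 0.0501 to 0.108): CD mice 1 to 5 of 8 weeks, CD mice 1, 2, 5 and 7 of 34 weeks, CD mouse 6, HFD mouse 2 and HFD mouse 6 of 20 weeks, and HFD mouse 5 of 34 weeks. It was also lost with TMM factors (0.68, adjusted p = 0.0736), median-of-ratios factors (0.70, adjusted p = 0.0669) and no filter on low values (adjusted p = 0.0755).

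Within the groups the macrophage members followed Cd68 from mouse to mouse, and the ligands did not. Over 38 mice, the deviations from the group means of Spi1 and Lyz2 correlated with those of Cd68 at Pearson r = 0.970 and 0.971, and at Spearman rho = 0.981 and 0.974. For Csf1r, Csf2ra and Csf2rb r was 0.916, 0.871 and 0.854 and rho 0.951, 0.881 and 0.804. All 5 had a permutation p of 1e-05, the smallest that 100000 resamples within groups can give, and 1.4e-05 after adjustment over the 7 genes. For Csf1 r was -0.117 and rho -0.113 (permutation p = 0.502 and 0.533, the same after adjustment), and for Il34 r was -0.263 and rho -0.238 (permutation p = 0.177 and 0.188, adjusted p = 0.206 and 0.219). Within single groups r ranged from 0.599 to 0.998 for the 5 genes and from -0.913 to 0.888 for the ligands. Without the 2 mice farthest from the median of Cd68, r was 0.817 to 0.963 for the 5 genes, -0.290 for Csf1 and -0.354 for Il34.

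The macrophage members did not rise by the same amount as Cd68. The log2 ratio of Csf1r to Cd68 was lower on HFD by 1.29 at 20 weeks, falling from 1.19 ± 0.39 to -0.10 ± 0.16 (difference -1.29, SD, n = 6 each, exact permutation p = 0.00216, adjusted p = 0.00433). At that time the ratios of Csf2ra, Csf2rb, Spi1 and Lyz2 to Cd68 were also lower on HFD, by differences of -0.85, -1.65, -0.48 and -0.41 (adjusted p 0.00433, 0.00433, 0.00433 and 0.00820). At 8 weeks the Csf2rb ratio differed by -1.01 (adjusted p = 0.0360), while the Csf1r, Csf2ra, Spi1 and Lyz2 ratios differed by -0.28, -0.81, 0.05 and 0.12 and did not pass. At 34 weeks the Csf2rb ratio differed by -0.83 and the Lyz2 ratio by -0.63 (adjusted p = 0.00300 and 0.00171), and those of Csf1r, Csf2ra and Spi1 by -0.12, -0.18 and -0.02, without passing. With age on CD, from 8 to 34 weeks, the ratios of Csf1r, Csf2ra, Csf2rb and Spi1 to Cd68 fell by 1.05, 1.88, 2.15 and 0.81 (adjusted p 0.00433, 0.00171, 0.00171 and 0.00171), and that of Lyz2 differed by 0.19 (adjusted p = 0.259). At low levels the added 1 in log2(CPM + 1) draws these ratios towards 0. A difference between groups can come out larger or smaller for that.

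The ratios of the ligands to Cd68 fell further. Il34 itself was not called at any time, so its ratio mainly restates the rise of Cd68. A difference in the Csf1 ratio also holds the rise of Cd68, and at 34 weeks Csf1 on its own did not pass. The ratio of Csf1 to Cd68 differed between the diets by -3.33, -4.29 and -2.55 at the 3 times (exact permutation p = 0.00649, 0.00216 and 0.00633, adjusted p = 0.0111, 0.00433 and 0.0111). That of Il34 differed by -1.84, -3.20 and -2.05 (exact p = 0.0152, 0.00216 and 0.0103, adjusted p = 0.0218, 0.00433 and 0.0162). Csf1 against Il34 was lower on HFD at 8 and 20 weeks, by -1.49 and -1.09 (exact p = 0.0281 and 0.00216, adjusted p = 0.0375 and 0.00433), and the difference of -0.50 at 34 weeks did not pass (exact p = 0.158, adjusted p = 0.189).

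The mean log2(CPM + 1) of 30 core macrophage genes rose on HFD as the receptors did, from medians of 4.01 to 5.50 at 8 weeks, 4.86 to 6.85 at 20 weeks and 5.89 to 7.46 at 34 weeks. With that mean as a covariate the number of members called was 3, 4 and 3 at the 3 times, against 6, 7 and 6 without it. Over all 10343 genes tested the calls also fell, from 4648, 5894 and 4468 to 3558, 2807 and 1261. The members called were Csf1, Spi1 and Lyz2 at 8 weeks, Csf2ra, Spi1, Cd68 and Lyz2 at 20 weeks, and Csf2ra, Spi1 and Cd68 at 34 weeks. Csf1 remained lower at 8 weeks (log2 fold change -1.43, adjusted p = 0.0166) but was not called at 20 weeks (-0.83, adjusted p = 0.242). At 20 weeks the covariate barely overlapped between the diets, at 3.60 to 6.36 in CD and 6.32 to 7.31 in HFD mice. Diet and covariate are hard to separate there, and a lost call does not show that a difference was absent. Csf1r was not called at any time (0.17, 0.03 and 0.43, adjusted p = 0.509, 0.930 and 0.0999), and Spi1 was called at all 3 (0.41, 0.72 and 0.45, adjusted p = 0.0445, 0.00315 and 0.0451). The falls of Csf1 at 34 against 20 weeks kept their size, at -3.00 on CD and -2.74 on HFD (adjusted p = 6.31e-07 and 1.54e-05). The covariate is read from the same RNA and cannot tell the number of macrophages from the RNA of each.

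Compared per kilobase of exon, a level that allows genes of different length to be set side by side, the order of the members changed with the groups. In CD mice at 8 weeks Lyz2 was first (213 ± 175 CPM per kb, n = 6), followed by Csf1 (99.3 ± 46.8), Cd68 (28.8 ± 18.4), Csf1r (13.2 ± 8.88), Il34 (8.92 ± 1.77), Csf2ra (6.73 ± 1.52), Spi1 (3.55 ± 1.92) and Csf2rb (3.45 ± 1.52). Only Csf1 and Cd68 were neighbours without overlap there. In HFD mice at 34 weeks the order was Lyz2 (3500 ± 1190), Cd68 (772 ± 330), Csf1r (149 ± 63.8), Spi1 (60.2 ± 24.4), Csf2ra (51.4 ± 23.7), Csf2rb (13.0 ± 5.39), Il34 (6.75 ± 2.15) and Csf1 (6.44 ± 5.38). Lyz2 and Cd68, Cd68 and Csf1r, and Csf2ra and Csf2rb did not overlap there, and the other neighbours did. Csf1 was in the second place in the first of these groups and in the last, beside Il34, in the second. With the longest transcript in place of all exons the last 2 of the HFD mice at 34 weeks changed places, at 8.15 ± 6.80 for Csf1 and 7.36 ± 2.34 for Il34, and the last 2 of the CD mice at 8 weeks did too. With either length the level of Csf1 exceeded that of its receptor in 6 of 6 CD mice at 8 weeks and in 0 of 6 HFD mice at 34 weeks.

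The other ligands, receptors and signalling parts of the CSF1 and GM-CSF receptors were a list of 37 genes, of which 31 passed the filter. On HFD 17 were higher and 6 lower at 8 weeks, 20 and 5 at 20 weeks, and 20 and 2 at 34 weeks. As shares of the 31, 54.8%, 64.5% and 64.5% were higher, beside 29.8%, 38.3% and 27.5% of all genes, and 19.4%, 16.1% and 6.45% were lower, beside 15.1%, 18.7% and 15.7%. The lower shares at 8 and 20 weeks were near those of all genes on plain CPM. The median log2 fold change was 0.47, 0.99 and 0.80, against 0.11, 0.14 and 0.07 over all genes. Tyrobp, the DAP12 adaptor that CSF1R signalling uses in myeloid cells, had 5.63 to 40.7 CPM in CD and 33.3 to 150 CPM in HFD mice at 8 weeks (log2 fold change 2.16, limma adjusted p = 0.00143). At 20 weeks it had 7.51 to 95.6 and 204 to 472 CPM, without overlap (3.77, adjusted p = 5.47e-07). Sdc1, or syndecan 1, which also binds interleukin 34, rose from a median of 9.79 to 32.4 CPM at 8 weeks without overlap (1.74, adjusted p = 0.00232). Src, the kinase that gave the Src family its name, rose from a median of 12.0 to 45.2 CPM at 20 weeks, also without overlap (1.85, adjusted p = 6.11e-09). At 34 weeks the smallest adjusted p among the higher genes were those of Pik3cg, a phosphoinositide kinase of leukocytes (11.9 to 38.7 CPM in median, 1.68, adjusted p = 9.08e-05), and Mapk3, which encodes ERK1 (111 to 169 CPM in median, 0.62, adjusted p = 9.44e-05). Both overlapped between the diets.

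Jak2, Shc1, Stat5a and Socs1 were among the lower genes of that list. Jak2, the kinase bound to the common beta chain, was at 143 to 196 CPM in CD and 50.5 to 105 CPM in HFD mice at 8 weeks, without overlap (log2 fold change -1.29, standard error 0.17, limma adjusted p = 1.95e-06). Shc1, an adaptor, was at 99.5 to 112 and 61.2 to 78.3 CPM, also without overlap (-0.62, adjusted p = 1.95e-06). Stat5a, a transcription factor that JAK2 phosphorylates, was lower at 20 weeks, at 212 to 363 CPM in CD and 67.3 to 136 CPM in HFD mice (-1.45, standard error 0.16, adjusted p = 2.26e-08), and at 34 weeks (-0.50, adjusted p = 0.00650). Socs1, a feedback inhibitor of JAK kinases, was lower at 20 weeks (-1.31, adjusted p = 2.67e-05) and 34 weeks (-0.56, adjusted p = 0.0436). Cish, another feedback inhibitor and target of STAT5, was named after its values were seen. Its log2 fold change was -2.79 at 8 weeks and -2.38 at 20 weeks (adjusted p = 4.83e-05 and 0.00011), and -0.40 at 34 weeks, which did not pass (adjusted p = 0.495). These genes are also used by adipocytes, and the cells that their RNA came from were not separated.

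**Figure D4:**
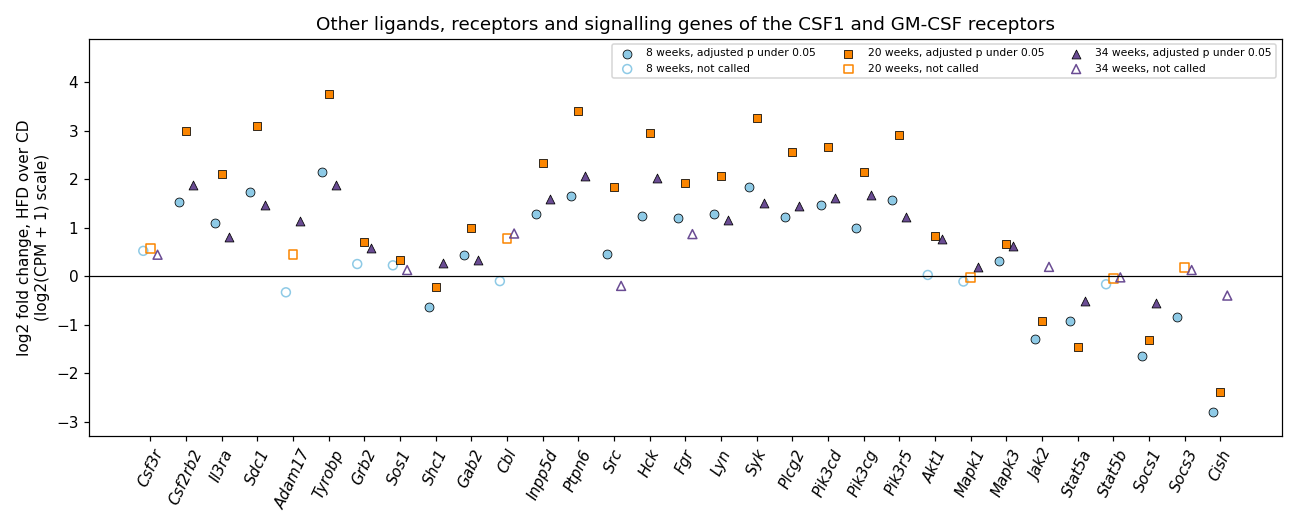
Log2 fold change of HFD over CD on the log2(CPM + 1) scale for the 31 tested genes of the receptor signalling list, in the order of the list, at 8 (circles), 20 (squares) and 34 weeks (triangles). Filled symbols passed an adjusted p of 0.05, and the lower genes Jak2, Stat5a, Socs1 and Cish stand at the right of the plot, below 0 at 8 and 20 weeks.

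Of 17 other transcription factors of macrophages 16 passed the filter. On HFD 3 were higher and 4 lower at 8 weeks, 7 and 1 at 20 weeks, and 10 and 1 at 34 weeks, with median log2 fold changes of 0.35, 0.37 and 0.92. On plain CPM the share called higher was 18.8% at 8 weeks, below the 29.8% of all genes. It was 43.8% at 20 weeks, near their 38.3%, and 62.5% at 34 weeks, beside 27.5%. The share called lower was 25.0%, 6.25% and 6.25%, beside 15.1%, 18.7% and 15.7% of all genes. Irf5, which drives inflammatory genes in macrophages, rose from a median of 6.58 to 24.4 CPM at 8 weeks (log2 fold change 1.71, limma adjusted p = 0.00536), and Fli1, an ETS factor of blood and vessel cells, from 4.30 to 8.90 CPM (1.09, adjusted p = 0.0159). At 20 weeks Tfec and Tfeb, relatives of MITF that serve lysosomal genes, rose from 2.14 to 21.5 CPM (2.72, adjusted p = 7.11e-07) and from 6.68 to 22.1 CPM (1.52, adjusted p = 1.24e-06), both without overlap. At 34 weeks Mitf itself (20.4 to 54.8 CPM, 1.41, adjusted p = 8.13e-05) and Tfeb (16.7 to 37.9 CPM, 0.97, adjusted p = 0.000586) led. Bach1, a repressor of haem and redox genes, was lower without overlap at 8 weeks (873 to 206 CPM in median, -1.81, adjusted p = 8.65e-05) and at 20 weeks (984 to 396 CPM, -1.34, adjusted p = 0.000983). Etv3 was lower at 8 weeks (-0.93, adjusted p = 0.00253), and Cebpa, a factor that adipocytes need too, at 34 weeks (666 to 471 CPM, -0.61, adjusted p = 0.00170). Other factors of this list are also used by adipocytes or other cells. The cells that their RNA came from were not separated.

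Of 33 other core macrophage genes 32 were in the table and 30 passed the filter. On HFD 18 were higher and 0 lower at 8 weeks, 22 and 1 at 20 weeks, and 23 and 0 at 34 weeks, with median log2 fold changes of 1.51, 2.42 and 1.63. As shares, 60.0%, 73.3% and 76.7% were higher, beside 29.8%, 38.3% and 27.5% of all genes, and 0%, 3.33% and 0% lower, beside 15.1%, 18.7% and 15.7%. At 8 weeks the leading genes were Ctss, or cathepsin S (32.6 to 229 CPM in median, 2.53, limma adjusted p = 0.000713), and Clec7a, the beta glucan receptor dectin 1 (4.35 to 25.9 CPM, 2.21, adjusted p = 0.00136). At 20 weeks Lgals3, or galectin 3, rose from a median of 241 to 2087 CPM (2.98, adjusted p = 6.62e-07) and Clec7a from 7.54 to 120 CPM (3.75, adjusted p = 7.63e-07), both without overlap. Cd163, a haemoglobin scavenger receptor of resident macrophages, was the 1 gene that fell, from a median of 118 to 36.0 CPM (-1.35, adjusted p = 0.0113), and its values overlapped. At 34 weeks Ptprc, or CD45 (60.0 to 226 CPM, 2.24, adjusted p = 0.000274), and Cybb, a subunit of the phagocyte oxidase (96.5 to 301 CPM, 2.21, adjusted p = 0.000694), led. Ptprc and some other genes of this list are shared with other leukocytes.

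The genes whose levels followed those of the members most closely over the 38 mice were named by their Pearson correlation on log2(CPM + 1), as a description. For Csf1 they were Il1r1 (0.964), Auts2 (0.956), Osmr (0.950), Fosl1 (0.939) and Dnajb4 (0.935). Il1r1 and Osmr encode receptors for interleukin 1 and oncostatin M, and Fosl1 an AP-1 subunit. For Csf1r they were Tlr7 (0.982), Frmd4b (0.981), Ptpro (0.980), C1qc (0.979) and Inpp5d (0.979), of which Tlr7, C1qc and Inpp5d are well known from macrophages. For Il34 the closest were weaker, Aldh1a1 (0.702), Ccdc80 (0.678), Ntrk2 (0.666), Ndrg2 (0.658) and Timp4 (0.652). The correlations hold the differences between groups, which the mice of a group share. On deviations from the group means they were 0.766 to 0.861 for the genes like Csf1, 0.943 to 0.967 for those like Csf1r and 0.629 to 0.761 for those like Il34.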

How the data were processed

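According to the methods, the authors aligned the reads to mm10 with STAR and counted those that overlapped the exons of 1 gene with featureCounts, against GENCODE annotation. The authors deposited CPM, reads per 1000000 on all genes, for 29132 genes in 38 mice, with technical replicates merged. Each column sums to 1000000 and 100% of the values were whole multiples of 1 read within 0.1 read, so reads were recovered for the count tests. The paper states that its CPM values carry TMM factors unless it says otherwise. Columns that all sum to 1000000 were taken as plain CPM, and TMM factors were used only as an alternative setting. The library kit marks strand, and the strand setting of the counting is not given in the sources used here.

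The 10343 genes with a mean log2(CPM + 1) above 2.0 were fitted with limma (3.58.1, R 4.3.3; pseudocount 1, mean-variance trend, 6 group means, 32 residual degrees of freedom), with Benjamini-Hochberg adjustment over all of them and a threshold of 0.05. Ratios between members were compared by exact permutation, and correlations by 100000 permutations within groups, in Python 3.11.15. The mice are separate animals: no 2 of a group agreed within sampling noise. The code was tested on simulated data. Alternatives used edgeR 4.0.16 and DESeq2 1.42.0. Lengths are from GENCODE exons on GRCm38, gene positions from RefSeq.

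The members and lists were chosen with earlier results of these data known. Genes named are all members, the 2 genes of each list with the smallest adjusted p in each direction at each time, the 5 most similar genes, and defining markers of other cells at or near 0. Cish, Csf2rb2, Lyz1 and Hmgxb3 are outside this rule, Cish chosen after its values were seen and the others for shared or overlapping sequence. Adgre1 was not analysed here. Pairing of mice by number was examined and is not used.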

Additional observations from a re-analysis of the deposited data

Results flagged for a closer look

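In 48 sets of values, 8 members in 6 groups, 2 single mice lay far from the rest of their group by Dixon's test at the 95% level, and chance alone flags about 2.4. HFD mouse 6 at 34 weeks had 91.0 CPM of Csf1, and the other 5 mice of its group had 14.8 to 27.8 CPM. CD mouse 1 at 20 weeks had 63.5 CPM of Csf2ra, and the other 5 mice of its group had 15.5 to 22.9 CPM. The same CD mouse had the highest value of its group for Csf1r, Csf2rb, Spi1, Cd68 and Lyz2, which the test did not single out. No interaction of diet and time passed for a member in the limma fit of all mice.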

How the results depend on the processing

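No scaling of the reads turned the direction of a called member, but scaling and the choice of test ended some calls. The members called at 8 weeks went from 6 to 5 with TMM factors, median-of-ratios factors and edgeR, and those at 34 weeks from 6 to 5 with edgeR and DESeq2 and to 4 with the 34 week mice fitted alone. Without the filter on low values, where more genes are tested, the counts were 5, 6 and 5. The members lost were Csf2ra at 8 weeks, Csf1 at 20 weeks, and Lyz2 and Csf2rb at 34 weeks. At 8, 20 and 34 weeks the median log2 fold change of all genes was 0.11, 0.14 and 0.07 on plain CPM and 0.00, -0.05 and -0.01 with TMM factors, and the genes called higher and lower went from 3083 and 1565 to 2299 and 2306 at 8 weeks, from 3957 and 1937 to 2807 and 3248 at 20 weeks, and from 2840 and 1628 to 2292 and 2253 at 34 weeks. With the mean of the core macrophage genes as a covariate the members called were 3, 4 and 3 for the diet at the 3 times, 3 for CD 34 against 8 weeks, 3 for HFD 20 against 8 weeks, 2 for HFD 34 against 20 weeks, and 2 and 2 for the diet difference at 20 against 8 and at 34 against 20 weeks. In the same order 3558, 2807, 1261, 5515, 1162, 3602, 734 and 1412 of all 10343 genes were called. Under that covariate Csf2ra turned to -0.0198 at 8 weeks and -0.29 for CD 34 against 8 weeks, Lyz2 to -0.28 at 34 weeks, Csf2rb to -0.52 for CD 34 against 8 weeks and Spi1 to -0.45 for HFD 34 against 20 weeks. With array weights 2 members were called for CD 20 against 8 weeks, 6 for CD 34 against 20 weeks, and 2 and 3 for the diet differences, and DESeq2 called 5 for CD 34 against 20 weeks. In the same order 1543, 6856, 4263, 3407 and 6375 of all 10343 genes were called. The cause was not tested. With the mouse number as a replicate block the members called were 5, 7 and 5 for the diet at the 3 times, without Csf2ra at 8 weeks (adjusted p = 0.0513) and Lyz2 at 34 weeks (adjusted p = 0.0593), and Csf2rb was lost for CD 34 against 8 weeks (adjusted p = 0.110). Same-numbered mice correlated at -0.283 to 0.313, -0.230 to 0.295 and -0.509 to 0.529, with 4, 3 and 1 of 6 pairs above 0.1, so the numbers were not taken to pair the mice.

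With each mouse left out in turn the counts ranged from 5 to 7, 6 to 7 and 4 to 7 for the diet, 3 to 5 for CD 34 against 20 weeks, and 0 to 1 for each diet difference. The number of ratios called at 8 weeks ranged from 3 to 6, against 5. With the longest transcript in place of all exons the mean levels in HFD mice at 20 weeks became 120 (Csf1r), 60.8 (Csf2ra), 21.0 (Csf2rb) and 73.9 (Spi1) CPM per kb, against 97.4, 48.2, 14.1 and 55.8. The fewest reads of a member in a mouse were 48, of Spi1, and how far counting error and the 6 to 8 mice of a group each limit the results was not tested.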
